A study of Mus musculus with 16 samples.

Results

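The mitochondrial genome of the mouse is a small circle of DNA whose genes stood in the expression table under symbols that begin with mt-. All entries with such a symbol were taken, which gave 37 of the 46386 entries: 13 protein genes, 2 ribosomal RNA genes and 22 transfer RNA genes. RNA was sequenced from 16 libraries of fat, 4 from each of 4 depots: epididymal fat (eWAT, a visceral white depot), inguinal fat (iWAT, a subcutaneous white depot), fat of the thigh (tAT) and brown fat (BAT). The animals of all 4 groups were male mice, written C57BL66/J in the series design, in which obesity had been induced with a high-fat diet; no other strain, diet, age or treatment was given. The series title names the search for a depot that is beige by nature, that is, white fat holding heat-producing cells. Whether each library of a depot is its own mouse is not stated in the labels, and p-values therefore speak only of how far these libraries vary, part of which can be technical.

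The mitochondrial genome encodes core membrane subunits of 4 of the enzyme complexes of oxidative phosphorylation, together with the ribosomal and transfer RNAs that mitochondria use to translate them. It is transcribed as long precursors from both strands, and the transfer RNAs that lie between the other genes mark where these are cut apart. The remaining subunits, and the proteins that copy, transcribe, process and translate the mitochondrial genome, come from nuclear genes. Brown adipocytes are packed with mitochondria, in which uncoupling protein 1 (Ucp1) lets the proton gradient run down as heat.

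The genes are tightly packed, and this bears on what an expression value can measure. On mm10, mt-Atp8 (chrM:7766-7969, plus strand), a small membrane subunit of ATP synthase, shares its last 43 bases with mt-Atp6 (chrM:7927-8607), the subunit that forms the proton channel. The gene mt-Nd4l (chrM:9877-10173, plus strand) shares its last 7 bases with mt-Nd4 (chrM:10167-11544); both encode membrane subunits of complex I. Another pair, mt-Nd5 and mt-Nd6, overlaps by 14 bases on opposite strands, and mt-Nd6 was the only protein gene on the minus strand. The kit is not stated to mark strand, so reads of mt-Nd6 cannot be told apart from antisense RNA of the same stretch. The sequences of 4 genes are given from the GENCODE vM21 transcripts, 5′ to 3′, for mt-Atp8 and mt-Nd4l with the bases shared with the next gene in capitals, since reads in those bases belong to both genes. The longest and the shortest transfer RNA gene, mt-Tl1 (chrM:2676-2750, plus strand, for leucine) and mt-Ts2 (chrM:11613-11671, plus strand, for serine), are shown because their whole length is 75 and 59 bases.
mt-Atp8: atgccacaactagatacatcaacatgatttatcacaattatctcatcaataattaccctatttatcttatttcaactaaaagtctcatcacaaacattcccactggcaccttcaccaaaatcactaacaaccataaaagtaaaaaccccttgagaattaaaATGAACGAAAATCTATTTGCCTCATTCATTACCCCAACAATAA
mt-Nd4l: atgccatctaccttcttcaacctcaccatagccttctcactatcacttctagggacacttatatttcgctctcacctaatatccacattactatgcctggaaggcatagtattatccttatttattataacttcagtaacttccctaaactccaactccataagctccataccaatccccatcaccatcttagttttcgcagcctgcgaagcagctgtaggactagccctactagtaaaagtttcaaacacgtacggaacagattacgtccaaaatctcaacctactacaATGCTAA
mt-Tl1: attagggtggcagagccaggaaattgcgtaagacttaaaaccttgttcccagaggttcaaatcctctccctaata
mt-Ts2: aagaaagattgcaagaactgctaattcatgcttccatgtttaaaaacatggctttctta

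All 22 transfer RNA genes were listed at 0 in all 16 libraries. They span 59 to 75 bases, 14 on the plus strand and 8 on the minus strand. The 898 other entries of the table with a gene span of 50 to 75 bases were also at 0 in every library, as were the 1375 entries of 76 to 100 bases. Of the 3252 longer entries up to 150 bases, 80.9% were at 0 throughout. A 0 for a transfer RNA gene was therefore shared with every entry of its length in the table, and no level of these 22 genes was measured.

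Of the other 15 genes, 7 had a value above 0 in every library: both ribosomal RNAs and the complex I genes mt-Nd1, mt-Nd2, mt-Nd3, mt-Nd5 and mt-Nd6. The other 8 were listed at 0 in all 4 BAT libraries: mt-Co1, mt-Co2 and mt-Co3 of cytochrome c oxidase, mt-Atp6 and mt-Atp8 of ATP synthase, mt-Nd4 and mt-Nd4l of complex I, and mt-Cytb of complex III. In tAT 3 and tAT 4, mt-Co1 was also at 0. In every library with a value these 8 genes stood at 1693 FPKM or more (fragments per length of gene and per mapped fragments of a library). The 34 zeros were not alone, since 228 such zeros occurred in 86 genes of the table whose median was at least 10 FPKM. They were treated as failed estimates and left out of means and fits, so no difference with BAT was estimated for the 8 genes.

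**Figure D1:**
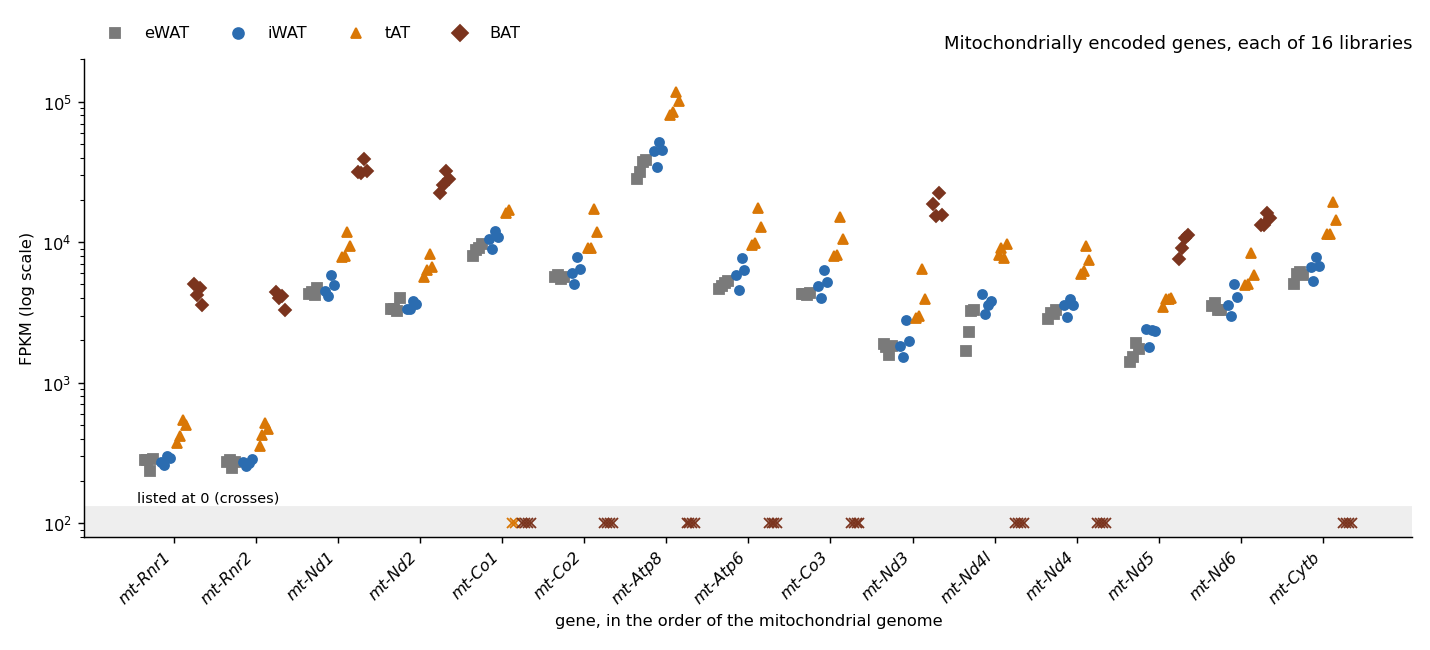
FPKM (log scale) of the 15 ribosomal RNA and protein genes in each of the 16 libraries, in genome order, with symbols for the 4 depots and crosses in the grey band for values listed at 0. The tAT libraries lie above both white depots for nearly every gene, BAT lies highest for the 7 genes it measured, and 8 genes have crosses for BAT.

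Within a library the 15 genes covered a wide range of FPKM, a measure per length. In the 10 libraries in which all 15 had a value, mt-Atp8 ranked first and mt-Co1, the catalytic subunit of cytochrome c oxidase, second, while the ribosomal RNAs held the last places. In 6 of these 10 libraries mt-Atp8 was the highest entry of the whole table. With 204 bases it was the shortest of the 15 genes, and its level in FPKM was 44025 ± 7243 (SD, n = 4) in iWAT, where mt-Atp6 stood at 6109.6 ± 1266 (SD, n = 4). The labels do not say how ribosomal RNA was removed before sequencing, so the level of mt-Rnr1 and mt-Rnr2 beside the protein genes is that of these libraries only. The 7 genes measured everywhere took 11.9 to 15.4% of all FPKM in BAT libraries, 2.80 to 3.70% in tAT, 1.63 to 2.16% in iWAT and 1.50 to 1.69% in eWAT. These totals are not alike, because failed estimates add nothing to them. The BAT totals lack every mitochondrial gene without a value there, and those of tAT 3 and tAT 4 lack mt-Co1. The BAT shares are therefore inflated against the other depots, by an amount that was not estimated. In bulk tissue a higher level from more cells of a type and one from more RNA per cell cannot be told apart.

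Fat of the thigh held more RNA of the mitochondrial genome than inguinal fat. All 15 measured genes were higher in tAT than in iWAT (limma on log2(FPKM + 1), adjusted p under 0.05 over 15019 entries), where 10.5% of all entries tested were higher. The log2 differences ran from 0.63 to 1.23 with a median of 0.92, and the median over all entries was -0.11. In 14 of the 15 genes the tAT and iWAT libraries did not overlap, with tAT higher, which held for 7.8% of all entries; the exception was mt-Nd6. Most brown adipocyte markers moved with these genes: 7 of 10 were higher and 1 lower in tAT than in iWAT. The lowest of the 10 differences was -1.25. In BAT 9 of the 10 were higher and 1 lower than in iWAT (12.8% and 61.5% of all entries), with a lowest difference of -1.02. The summed FPKM of the 10 markers was 1242 to 3246 in tAT, 150.5 to 233 in iWAT, 56.0 to 94.3 in eWAT and 14109 to 18348 in BAT. Ucp1 had a mean of 270.3 FPKM in tAT and 0.243 FPKM in iWAT, and Zic1, a marker of classical brown fat, was listed at 0 in all 4 tAT libraries. Of 8 general adipocyte markers 4 were lower and none higher in tAT, where 29.3% of all entries were lower. Their sums were 19607 to 32643 FPKM in tAT and 31836 to 37054 FPKM in iWAT. Skeletal muscle markers differed as well: 5 of 15 were higher and none lower in tAT than in iWAT. Their sums were 329 to 29523 FPKM in tAT and 139 to 851 FPKM in iWAT. The part of these cell types in the differences was not tested.

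Among complex I genes, mt-Nd1, a core subunit of the membrane arm, read 7868, 8029, 11729 and 9366 FPKM in tAT libraries 1 to 4 and 4525, 4146, 5820.3 and 4964 FPKM in iWAT libraries 1 to 4. Every tAT library lay above every iWAT library, and tAT 3 was the highest. The log2 difference was 0.92 ± 0.15 (SE, adjusted p = 0.000224), a 1.89-fold higher level. The difference was largest for mt-Nd4l, at 8103, 9039, 7725 and 9678 FPKM in tAT and 4269, 3105, 3557 and 3801 FPKM in iWAT. Here the groups did not overlap either, tAT 3 was the lowest of its depot, and the log2 difference was 1.23 ± 0.20 (SE, adjusted p = 0.000541). It was smallest for mt-Nd6, which read 4986, 5075, 8353 and 5844 FPKM in tAT and 3549.6, 2992, 5007 and 4071 FPKM in iWAT. The lowest tAT value of mt-Nd6 lay just under the highest iWAT value, and the difference of 0.63 ± 0.17 (SE, adjusted p = 0.01) had an adjusted p of 0.0549 when only these 2 depots were fitted.

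The genes of the other complexes rose as well. For mt-Cytb, the subunit of complex III that carries electrons across the membrane, the tAT libraries read 11357, 11497, 19269 and 14464 FPKM and the iWAT libraries 6690.5, 5288, 7807 and 6762 FPKM. All tAT values were above all iWAT values, with a log2 difference of 1.07 ± 0.18 (SE, adjusted p = 0.00067). The copper-binding cytochrome c oxidase subunit mt-Co2 differed by 0.86 ± 0.20 (SE, adjusted p = 0.00516) and mt-Co3, which stabilises that enzyme, by 1.00 ± 0.20 (SE, adjusted p = 0.00196). For mt-Co1 only tAT 1 and tAT 2 had a value, 16483 ± 603 (SD, n = 2) FPKM, against 10593 ± 1262 (SD, n = 4) FPKM in iWAT. Its difference of 0.65 ± 0.16 (SE, adjusted p = 0.00935) rests on these libraries. Of the tAT libraries, tAT 1 and tAT 2 had the highest sums of skeletal muscle markers, 29287 and 29523 FPKM. Without tAT 2, with 1 tAT value left, the difference was 0.61. In ATP synthase, mt-Atp8 read 80684, 85226, 118305 and 101238 FPKM in tAT and 44966, 34094, 51474 and 45566 FPKM in iWAT. The 2 depots did not overlap for this gene, and the log2 difference was 1.13 ± 0.18 (SE, adjusted p = 0.000479). After quantile normalization the difference of mt-Co2 was 0.18 and did not pass. That method gives entries of equal rank the same value in every library. The difference of mt-Atp8 was 2.63e-16 there, so its ranks left nothing to test.

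Against epididymal fat the 15 genes were again higher in tAT, all past the threshold (21.7% of all entries were higher) and none with overlapping libraries (14.2% of all entries). The differences ran from 0.70 for mt-Rnr2 to 1.76 for mt-Nd4l with a median of 1.13. This comparison uses the same tAT libraries as the one with iWAT. The small-subunit ribosomal RNA, mt-Rnr1, read 370.1, 421, 542 and 503 FPKM in tAT, 273, 261, 299 and 291 FPKM in iWAT and 283, 282, 236 and 285 FPKM in eWAT. The tAT libraries lay above those of both white depots, by 0.69 ± 0.13 (SE, adjusted p = 0.000884) over iWAT and 0.74 ± 0.13 (SE, adjusted p = 0.000211) over eWAT.

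**Figure D2:**
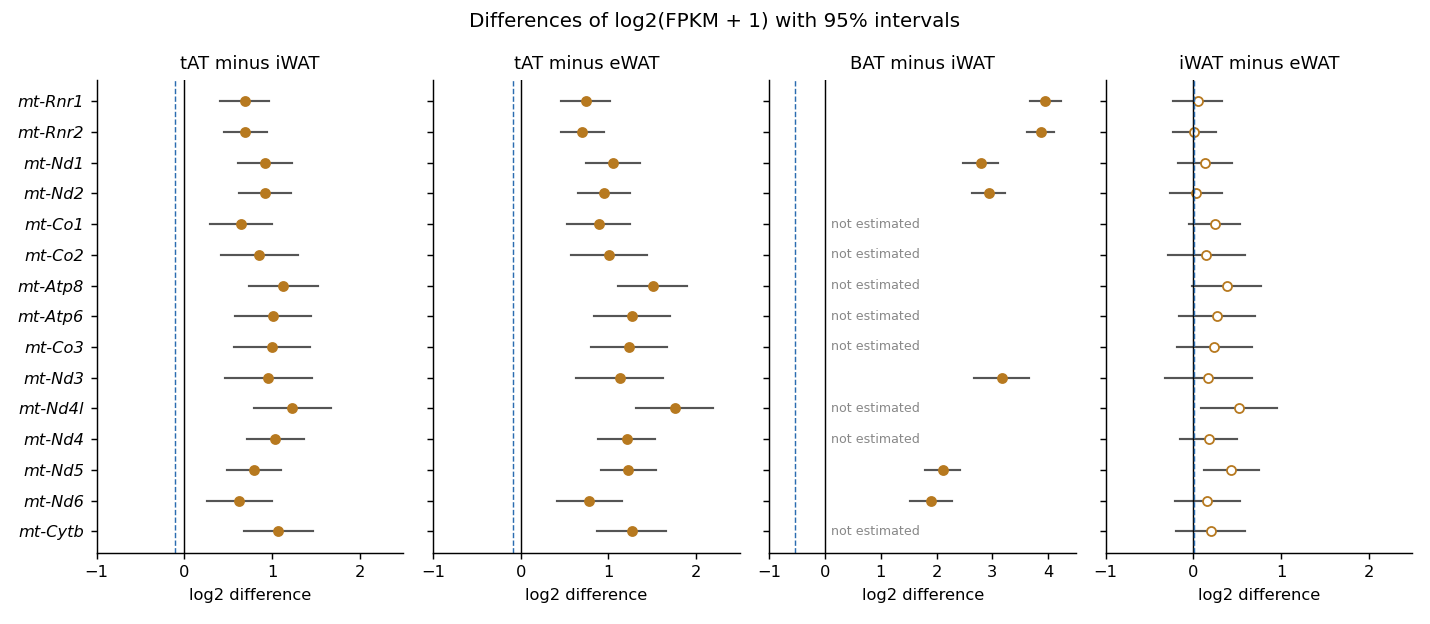
Log2 differences of the 15 genes with 95% intervals from the limma fit in 4 comparisons of depots; filled points passed at an adjusted p under 0.05, the dashed line is the median of all entries tested, and genes at 0 in BAT are not estimated there. The tAT points lie between 0.63 and 1.76 over the white depots, the BAT points between 1.90 and 3.95 over iWAT, and no point passed between iWAT and eWAT.

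Brown fat had the highest levels of every gene it measured. All 7 genes were higher in BAT than in iWAT (12.8% of all entries were higher), by log2 differences of 1.90 to 3.95 with a median of 2.93, while the median of all entries was -0.53. All 7 were also higher in BAT than in eWAT (15.1% of all entries) and lower in tAT than in BAT (11.2% of all entries were lower), the latter by -3.26 to -1.27 with a median of -2.01. In each of these comparisons the libraries of the 2 depots did not overlap for any of the 7 genes; over all entries this held, in the same direction, for 12.2% against iWAT, 13.6% against eWAT and 9.24% for tAT under BAT. After median-of-ratios scaling, which brought the median of all entries to -0.01, the 7 differences of BAT over iWAT ran from 2.55 to 4.60.

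The largest differences of BAT over iWAT were those of the ribosomal RNAs, though their levels were the lowest of the 7 genes in BAT. The BAT libraries read 5064, 4219, 4716 and 3552 FPKM of mt-Rnr1, all above the highest tAT library at 542 FPKM. This was a difference of 3.95 ± 0.13 (SE, adjusted p = 8.23e-13) over iWAT, or 15.4-fold. The large-subunit ribosomal RNA, mt-Rnr2, read 4439, 4014, 4115 and 3309 FPKM and differed by 3.86 ± 0.12 (SE, adjusted p = 2.65e-13), or 14.5-fold. For both ribosomal RNAs BAT 4 was the lowest library of the depot and BAT 1 the highest.

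Among the complex I genes, mt-Nd3 read 18704, 15339.8, 22250.5 and 15659 FPKM in BAT against 1832, 1527, 2802 and 1966 FPKM in iWAT. The lowest BAT library was far above the highest iWAT library, with a difference of 3.17 ± 0.23 (SE, adjusted p = 6.30e-09). The membrane-arm subunits mt-Nd2 and mt-Nd1 differed by 2.93 ± 0.14 (SE, adjusted p = 4.60e-11) and 2.79 ± 0.15 (SE, adjusted p = 1.25e-10). In BAT mt-Nd1 read 31437, 30849, 39317 and 32301 FPKM, and BAT 3 was the highest. The smallest differences were those of mt-Nd5, a proton-pumping subunit, at 2.11 ± 0.15 (SE, adjusted p = 3.01e-09), and of mt-Nd6 at 1.90 ± 0.17 (SE, adjusted p = 7.86e-08), a 3.73-fold higher level. The mt-Nd6 libraries of BAT read 13176, 13212, 16173 and 14939 FPKM, which lay above every library of the other depots.

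Between the white depots no gene of the mitochondrial genome passed as fitted, and a few did under other settings. None of the 15 differed between iWAT and eWAT at an adjusted p under 0.05 in limma, where 14% of all entries did, and 2 had an unadjusted p under 0.05. These were mt-Nd5, at 2407, 1791, 2362 and 2324 FPKM in iWAT and 1393, 1519.6, 1918 and 1749.9 FPKM in eWAT, and mt-Nd4l. The libraries overlapped for both, with differences of 0.43 ± 0.15 (SE, adjusted p = 0.0606) and 0.52 ± 0.20 (SE, adjusted p = 0.104). Both passed when eWAT 3 was left out (adjusted p = 0.0314 and 0.049), and mt-Nd5 also passed without iWAT 2, tAT 3 or BAT 1, after quantile normalization (adjusted p = 0.0129), after either rescaling to other entries and with the replicate number as a block (adjusted p = 0.0364). After quantile normalization mt-Atp8 passed as well, with a difference of 0.82 (adjusted p = 0.000286). Its value under that method depends only on its rank in each library. The 95% intervals show the size of difference these libraries could leave unseen, which varied by gene. The interval of mt-Nd1 was -0.18 to 0.44, and the upper limits ran from 0.25 for mt-Rnr2 to 0.96 for mt-Nd4l.

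Ratios between genes of one library do not depend on how the library was scaled. The genes set against each other were chosen after their values were seen, 9 ratios in all, and gave 48 comparisons of depots. With 4 libraries against 4 the exact two-sided permutation test cannot go below 0.0286, and none of the 48 passed after Benjamini-Hochberg adjustment (smallest adjusted p 0.0857). The values are given as a description. The ratio of mt-Rnr1 to mt-Nd1 was 0.161, 0.137, 0.12 and 0.11 in BAT libraries 1 to 4 and 0.0462 to 0.0667 in the 12 libraries of the other depots. The BAT values lay above all others, and the geometric mean was 2.24-fold that of iWAT (exact p = 0.0286, adjusted p = 0.0857). The ratio of mt-Nd6 to mt-Nd1 was 0.419, 0.428, 0.411 and 0.462 in BAT and 0.634, 0.632, 0.712 and 0.624 in tAT. It ran from 0.696 to 0.860 in the white depots, so that BAT lay lowest with no overlap.

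**Figure D3:**
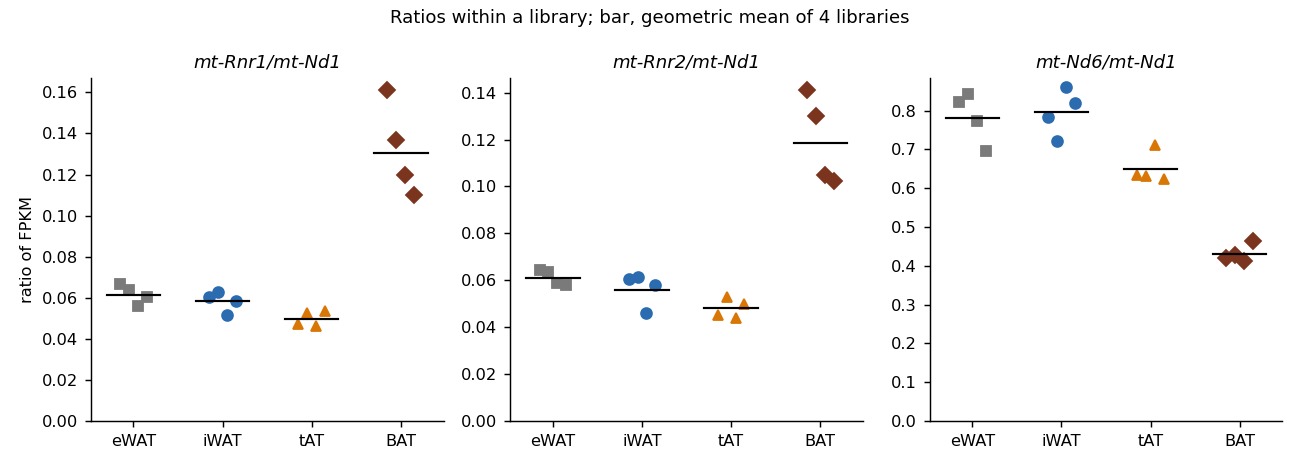
Ratios of FPKM within each library for mt-Rnr1, mt-Rnr2 and mt-Nd6 over mt-Nd1, with points for the 4 libraries of a depot and a bar at their geometric mean. The ribosomal RNA ratios of BAT, 0.102 to 0.161, lie above those of the other depots and its mt-Nd6 ratios, 0.411 to 0.462, below them; no comparison passed after adjustment.

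Stretches of the mitochondrial genome also lie in nuclear chromosomes, and the table listed several as genes of their own. Of the 15 genes, 7 had such a copy with an identity of at least 99% over the aligned bases, all on chromosome 1. Where gene and copy have the same bases, their reads cannot be told apart. The aligned part was 31.3% of mt-Co1 for Gm29216 and 63.6% of mt-Nd4 for Gm28439. Several copies were listed at nearly the FPKM of their gene: the median of copy over gene was 1.00 for Gm28437 and mt-Co3, 1.01 for Gm10925 and mt-Atp6, 1.01 for Gm28661 and mt-Co2, 1.01 for Gm28438 and mt-Nd3, and 1.02 for Gm10222 and mt-Nd4l. The FPKM of these pairs were therefore not summed.

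Some copies carried values where the gene itself was at 0. In the BAT libraries, where mt-Nd4l was at 0, Gm10222 read 20642, 27154, 35885 and 33404 FPKM, against 4300.2, 3159.6, 3613 and 3868 FPKM in iWAT. The BAT libraries were all higher, by 2.95 ± 0.21 (SE, adjusted p = 5.00e-09). Gm28439, which matches 876 bases of mt-Nd4 without a mismatch, read 13234, 15138, 18917 and 17371 FPKM in BAT, a difference of 2.90 ± 0.15 (SE, adjusted p = 1.10e-10) over iWAT. The copy Gm13340 on chromosome 2, at 97.6% identity to mt-Co1, was listed at a median of 0.0251 of its gene where both had a value. It read 2159, 2247, 2826 and 2456 FPKM in BAT and differed by 3.21 ± 0.15 (SE, adjusted p = 3.23e-11) from iWAT. A second copy on chromosome 2, Gm13341, at 95.9% identity to mt-Co2, differed by 3.37 ± 0.17 (SE, adjusted p = 1.05e-10). In tAT 3 and tAT 4, where mt-Co1 was at 0, the chromosome 1 copy of 483 of its bases, Gm29216, read 40156 and 22662 FPKM, its highest values in the table. Gm29216, Gm10925, Gm28661 and Gm28437 were at 0 in all BAT libraries, like their genes.

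**Figure D4:**
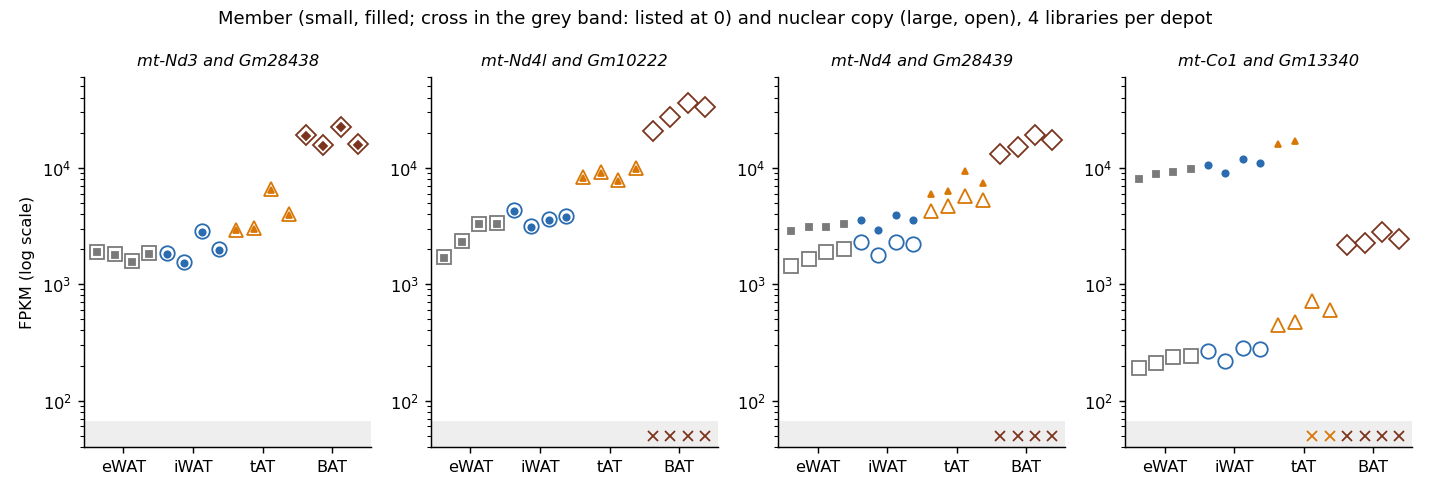
FPKM (log scale) of 4 mitochondrial genes (small filled symbols) and of a nuclear copy of each (large open symbols) in the 16 libraries, grouped by depot, with crosses in the grey band for genes listed at 0. The copies of mt-Nd4l, mt-Nd4 and mt-Co1 have values in all 4 BAT libraries, where the genes are at 0.

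The tAT libraries differed among themselves in how much skeletal muscle RNA they held. The summed FPKM of 15 muscle markers of the 16 listed (Acta1 was not analysed here) was 29287, 29523, 329 and 18678 in tAT libraries 1 to 4, 139 to 851 in iWAT, 79.6 to 152 in eWAT and 138 to 3663 in BAT, and none of the 15 was at 0 throughout a depot. Library tAT 3 thus lay within the range of iWAT for these markers. It was the highest tAT library for 12 of the 14 genes measured in all 4, and 12 of the 14 rose in the order tAT 1, 2, 4, 3. That order was taken from these data, and neither count was made over all entries. The genes were read in the same 4 libraries, so they are not separate observations. In the same order Ucp1 read 114, 152, 354 and 461 FPKM. The geometric mean of the 7 genes measured everywhere was 2250, 2458, 2808 and 3445 FPKM in that order. A further fit left out the 5 libraries with much muscle RNA (tAT 1, 2 and 4 and BAT 3 and 4), a setting chosen after the data were seen. The 14 genes that could be fitted then differed by 0.84 to 1.70 between tAT 3 and iWAT, where the median of all entries was -0.15. Between tAT 3 and BAT the 7 genes differed by -3.09 to -0.66, the smallest being mt-Nd6, and the median of all entries was 0.38. With 1 tAT library left, only the sizes of these differences are given. The macrophage markers summed to 66.4 to 116 FPKM in tAT and 198 to 388 in iWAT, and their part in the differences was not tested.

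**Figure D5:**
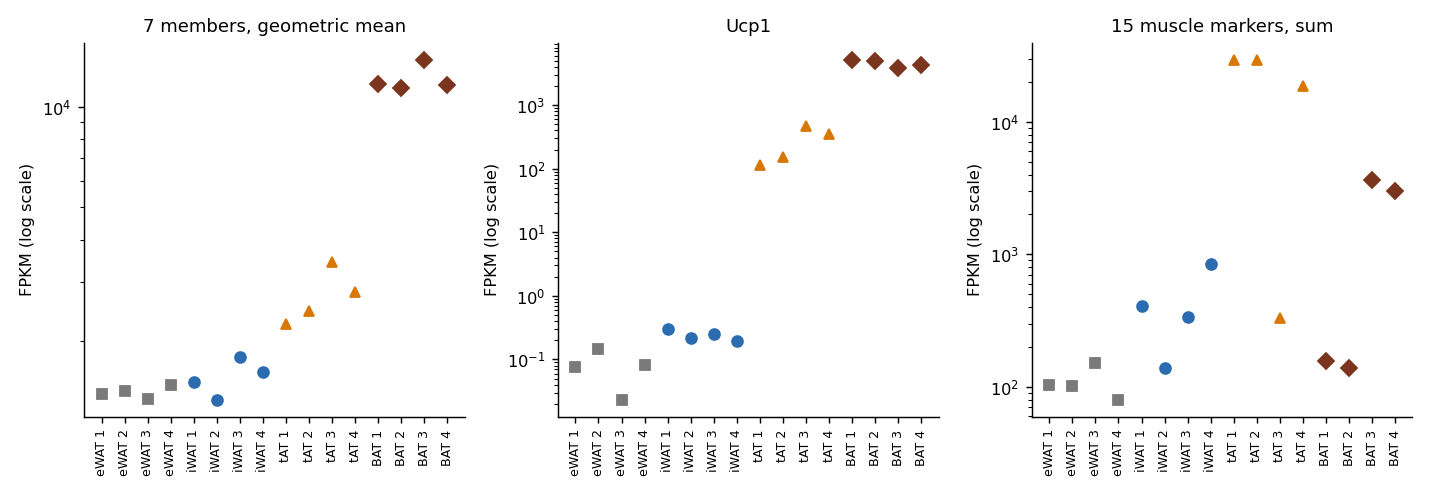
FPKM (log scale) in each of the 16 libraries of the geometric mean of the 7 genes measured everywhere, of Ucp1, and of the sum of 15 skeletal muscle markers. Library tAT 3 is the highest of its depot for the 7 genes (3445 FPKM) and Ucp1 (461 FPKM) and the lowest for the muscle sum (329 FPKM).

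The nuclear genes that serve the mitochondrial genome were followed in 4 lists, beside a background, against iWAT, of 10.5% of all entries higher and 29.3% lower in tAT and 12.8% higher and 61.5% lower in BAT. Of 16 genes for its transcription and maintenance, 3 were higher and none lower in tAT than in iWAT, and 9 were higher and none lower in BAT than in iWAT. In tAT the largest rises were those of Mterf3, a negative regulator of its transcription (0.51, adjusted p = 0.00196), and Mgme1, an exonuclease of its replication (0.37, adjusted p = 0.00234). In BAT they were those of Tfb2m, which opens the promoter, at 12.9 ± 0.637 FPKM in iWAT and 26.5 ± 2.04 FPKM in BAT (SD, n = 4; log2 difference 0.98), and Polrmt, the RNA polymerase (0.97).

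Of 20 genes for RNA processing and stability, 7 were higher and 1 lower in tAT, and 16 were higher and 2 lower in BAT. Fastkd1, of a family of mitochondrial RNA-binding proteins, was at 4.36 ± 0.363 FPKM in iWAT, 7.92 ± 1.08 in tAT and 16.3 ± 1.38 in BAT (SD, n = 4). It rose by 0.73 in tAT and 1.69 in BAT. Lrpprc, which stabilises mitochondrial messenger RNAs, was higher by 0.57 in tAT and 1.65 in BAT. Rexo2, which degrades short RNAs, was lower by -0.70 in tAT and -0.81 in BAT; after median-of-ratios scaling the BAT difference was -0.17 and did not pass (adjusted p = 0.218). The other gene that was lower in BAT, Fastkd3 (-0.35), changed sign after that scaling.

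Of 17 transfer RNA synthetases of mitochondria, 3 were higher and 2 lower in tAT, and 11 were higher and 2 lower in BAT. Lars2, which charges the leucine transfer RNA, was at 193 ± 24.2 FPKM in iWAT, 125 ± 17.0 in tAT and 65.2 ± 6.83 in BAT (SD, n = 4), against the direction of most of its list. Its differences were -0.62 and -1.55. The tAT difference did not pass after quantile normalization (-0.41, adjusted p = 0.0803) or after rescaling to entries that are neither mitochondrial genes nor their copies (-0.45, adjusted p = 0.0539). Without the muscle-rich libraries, with 1 tAT library left, the difference was -0.76. Of 19 factors for translation and for inserting the products into the membrane, 5 were higher and none lower in tAT, and 15 were higher and 1 lower in BAT. Taco1, a translational activator of mt-Co1, was higher by 0.54 in tAT and 1.67 in BAT, and the elongation factor Tufm by 1.74 in BAT. The lower gene was Surf1, an assembly factor of cytochrome c oxidase (-0.50), which changed sign after median-of-ratios scaling.

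The nuclear partner subunits of the same complexes were higher in BAT than in iWAT in all 7 core genes listed for complex I, all 9 of complex III and all 9 of complex IV, with median differences of 2.13, 2.05 and 1.86. Of 15 ATP synthase genes, 12 were higher and 3 lower. The lower genes were Atp5g1 (-2.28) and Atp5g3 (-1.15), which encode the same ring subunit, and Atp5j (-0.28), which was named after its value was seen. In tAT the counts were smaller, beside 10.5% of all entries higher: 5 of 7 for complex I, 5 of 9 for complex III, 2 of 9 for complex IV and 2 of 15 for ATP synthase were higher and none lower, with medians of 0.51, 0.55, 0.18 and 0.20. The complex I subunit Ndufs1 was higher by 0.83 and the complex IV subunit Cox5a by 0.74 in tAT. Of the 112 nuclear genes in the 8 lists that were tested, 35 passed in either direction between tAT and iWAT, where 39.9% of all entries did. Between BAT and iWAT 96 of 112 passed, where 74.3% of all entries did.

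Levels of mitochondrial over nuclear subunits of one complex, as ratios of geometric means of FPKM per library, are given as a description. For complex I, with mt-Nd1, mt-Nd2, mt-Nd3, mt-Nd5 and mt-Nd6, the median ratio was 24.9 in eWAT, 26.3 in iWAT, 33.3 in tAT and 35.6 in BAT. The tAT libraries, 31.5 to 36.2, lay above the iWAT libraries, 23.3 to 28.7, and within the range of BAT, 30.8 to 43.7. For complex IV, with mt-Co2 and mt-Co3, the median was 9.30 in eWAT, 11.4 in iWAT and 18.1 in tAT. For complex III, with mt-Cytb, it was 21.0, 24.0 and 36.7, and for ATP synthase, with mt-Atp6, 13.9, 17.8 and 29.9 in the same order. The tAT libraries did not overlap with those of either white depot in any of the 4 complexes.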

How the data were processed

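The deposited values are FPKM as the authors computed them, with TopHat, TopHat2 2.0.9, Cufflinks 2.1.1 and genome build mm10 per the submitters' processing notes; the settings, the annotation and the handling of strand are not stated there. Libraries were made with a TruSeq RNA kit from Trizol RNA, per the labels' protocols. Since FPKM is relative to the library total, abundant genes lower all others. No counts were used, so depth is unknown, and no counting interval was computed. The FPKM sum per library ran from 818815 to 1074120, and 12464 to 14307 genes reached 1 FPKM.

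The 15019 entries that reached 1 FPKM in 4 or more libraries were fitted on log2(FPKM + 1) with limma 3.58.1 (R 4.3.3; trend, robust), a mean per depot over all 16 libraries and Benjamini-Hochberg adjustment over all entries tested. Fold changes are on that scale, which understates the change of low genes. Zeros of genes with a median of at least 10 FPKM were set to missing. The fit was tested on simulated data. Copies were searched among GENCODE vM21 transcripts (mm10) with blastn 2.17.0. Figures were drawn with matplotlib 3.10.9 (python 3.11.15).

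Depots and replicate numbers came from the titles. All members were named, and of each nuclear list up to 2 genes with the largest rise and 2 with the largest fall in tAT and in BAT over iWAT; the text gives those that carry a comparison, and 1 gene the rule took is not reported here, though it stays in the counts of its list. Twnk was matched as Peo1 and Prorp as 1110008L16Rik; Cox4i1 was not analysed here. Members and lists were chosen with earlier results of these data known. The comparison of copies, the 9 ratios with their exact permutation tests, the count of libraries that do not overlap, the setting without muscle-rich libraries and the rescaling to entries that are neither members nor copies were added after the values were seen. So was the order in which the tAT libraries are read. Alternatives covered the pseudocount, the filter, scaling, zeros, the depots fitted, the replicate number as a block and each library left out.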

Additional observations from a re-analysis of the deposited data

Results flagged for a closer look

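In 85 groups of 4 values (a gene or ratio in a depot), 5 had a library whose gap to the nearest of the others exceeded Dixon's 95% critical share of the group's range; chance flags about 1 in 20 groups. The gene mt-Rnr1 read 236 FPKM in eWAT 3, where the other libraries of the depot lay between 282 and 285. The gene mt-Nd2 read 4011 FPKM in eWAT 4, and the other eWAT libraries lay between 3231 and 3326. The gene mt-Nd5 read 1791 FPKM in iWAT 2 (2324 to 2407 in the others) and 3458 FPKM in tAT 1 (3934 to 4007 in the others). The ratio of mt-Nd6 to mt-Nd1 was 0.712 in tAT 3, the library with little muscle RNA, and 0.624 to 0.634 in the other tAT libraries.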

How the results depend on the processing

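Of 1780 values of the 66 differences of the mitochondrial genes under other settings, 1756 kept their direction and their side of the threshold, 10 passed only there, 6 no longer passed and 8 changed sign. With zeros kept as values, 15 genes passed in BAT minus eWAT, BAT minus iWAT and tAT minus BAT, 8 of them in the opposite direction to the measured ones, and mt-Co1 turned to -6.11 in tAT minus eWAT and -6.36 in tAT minus iWAT, by construction. Between iWAT and eWAT 2 genes, mt-Atp8 and mt-Nd5, passed after quantile normalization, and mt-Nd5 after each rescaling to other entries. The other changes of sign were small and lay between iWAT and eWAT: mt-Rnr2 (-0.0065 after median-of-ratios scaling), the copies Gm13339 (0.039 and 0.014) and Gm29216 (-0.064) after quantile normalization or rescaling, and, with each library left out, mt-Nd2 (-0.0099 to 0.098; below 0 without eWAT 3 or iWAT 3), mt-Rnr1 (-0.013 to 0.086; eWAT 3) and mt-Rnr2 (-0.027 to 0.038; eWAT 3 or iWAT 4). With each library left out, the count of mitochondrial genes ran from 14 to 15 in tAT minus iWAT and 0 to 2 in iWAT minus eWAT, and stayed at 15 and 7 elsewhere.

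Over 24 pairs of libraries with the same replicate number, the correlation of deviations ran from -0.28 to 0.22 and exceeded 0.1 in 6. Libraries with different numbers were not compared, so whether the number pairs the libraries cannot be judged from these values. With the replicate number as a block, 1 mitochondrial gene (mt-Nd5) passed between iWAT and eWAT, and no other count of these genes changed.

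The count of nuclear genes moved most in tAT minus iWAT, from 35 to 62 after quantile normalization, 55 and 62 after the rescalings and 60 without the muscle-rich libraries. Without the muscle-rich libraries 1 tAT library was left. That count cannot be set beside the others, and no conclusion is drawn from it. The count of nuclear genes was 80 in place of 52 in tAT minus eWAT after rescaling to entries that are neither members nor copies. In iWAT minus eWAT it was 3, 9, 11 and 13 in place of 5 under median-of-ratios scaling, quantile normalization and the rescalings. With each library left out it ran from 28 to 42 in tAT minus iWAT, 45 to 57 in tAT minus eWAT, 84 to 92 in tAT minus BAT, 90 to 97 in BAT minus iWAT, 93 to 97 in BAT minus eWAT and 1 to 8 in iWAT minus eWAT. In BAT minus iWAT, Fastkd3 turned to 0.10 and 0.29 and Surf1 to 0.15 under other scalings. The share of all entries passing was not computed under the other settings, so their counts of nuclear genes have no background. The causes were not tested.

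Log2 differences of ratios changed sign without the muscle-rich libraries for mt-Rnr1/mt-Rnr2 (0.015), mt-Nd6/mt-Nd5 (0.29), mt-Nd4l/mt-Nd4 (-0.35) and mt-Atp8/mt-Atp6 (-0.10) in tAT minus iWAT, mt-Nd5/mt-Nd1 (-0.14) and mt-Nd6/mt-Nd5 (0.0088) in tAT minus eWAT, and mt-Nd3/mt-Nd1 (0.016) in tAT minus BAT. With each library left out the range crossed 0 for mt-Rnr1/mt-Rnr2 (-0.022 to 0.034) and mt-Nd3/mt-Nd1 (-0.087 to 0.12) in tAT minus iWAT, mt-Nd3/mt-Nd1 (-0.048 to 0.15) in tAT minus eWAT, mt-Nd6/mt-Nd5 (-0.11 to 0.13) in tAT minus BAT, and mt-Nd3/mt-Nd1 (-0.038 to 0.091) and mt-Nd6/mt-Nd1 (-0.032 to 0.070) in iWAT minus eWAT. The number of reads behind these values is unknown, which limits the precision that can be given.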
